A study of Mus musculus with 12 samples.

Results

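The genes described here are members of the fetal growth program that is tied to the RNA-binding protein Lin28 and the microRNA let-7: Hmga2, Hmga1, Igf2bp1, Igf2bp2, Igf2bp3, Lin28a, Lin28b, Mycn, Ccnd1 and Ccnd2. Members were taken as every array probe set whose only listed gene symbol is one of these 10. The annotation used gave 30 probe sets for 8 of the 10 genes, out of 34945 probe sets with 1 symbol and 45101 on the array. Hmga1 and Igf2bp2 are not analysed here. The number of probe sets was 7 for Ccnd2, 6 for Igf2bp3, 4 each for Hmga2 and Igf2bp1, 3 each for Mycn and Ccnd1, 2 for Lin28a and 1 for Lin28b.

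RNA was measured on 12 one-colour Affymetrix arrays, 3 in each of 4 groups of 129/Sv mice. The adult groups were dorsal cortex of males, wild types aged 155, 112 and 101 days and Qkf gt/gt mutants aged 155, 112 and 99 days. The embryonic groups were dorsal telencephalon at E12.5, midway through gestation, wild type and Qkf gt/gt, from 2 parental crosses named in the labels. The first cross gave 1 array of each genotype and the second gave 2 of each. Qkf is a former name of Kat6b (also Myst4 or Morf), which encodes a histone acetyltransferase of the MYST family, and gt marks a gene-trap allele, carried on both chromosomes. The labels do not state the sex of the embryos or whether 1 embryonic array held 1 embryo. The series set out to find genes whose expression depends on Kat6b at these 2 stages.

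Lin28a and Lin28b bind precursors of let-7 and block their maturation, in part by recruiting enzymes that add uridines to the precursor and mark it for decay. Mature let-7 binds messenger RNAs through its seed, the bases near its 5′ end, and lowers their stability and translation. Hmga2, the Igf2bp genes, Mycn and the D-type cyclins are among its reported targets. In the embryonic forebrain Hmga2 and Lin28 genes are known for their high expression in dividing neural progenitors, and let-7 rises as the tissue matures.

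The microRNAs themselves were not analysed here. A few of the mature sequences are shown because they carry the shared seed through which members of the program are recognised (seed in capitals, bases 2 to 8, mouse sequences from RefSeq, GRCm38.p6).
let-7a-5p: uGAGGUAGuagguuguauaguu
let-7e-5p: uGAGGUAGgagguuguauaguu
let-7i-5p: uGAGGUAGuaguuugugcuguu
miR-98-5p: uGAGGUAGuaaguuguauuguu
These differ from let-7a at 1 base in let-7e, 4 bases in let-7i and 2 bases in miR-98, and in no case within the seed. Of 1679 mature mouse names in the table, 11 held this seed.

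Lin28 proteins are known to recognise the letters GGAG in the loop of the precursor. These letters stood between the arms of 9 of the 12 let-7 and miR-98 hairpins. One hairpin with the letters (in capitals) and one without are shown: Mirlet7g lies at chr9:106178840-106178927 (plus strand) and Mirlet7b at chr15:85707319-85707403 (plus strand).
Mirlet7g: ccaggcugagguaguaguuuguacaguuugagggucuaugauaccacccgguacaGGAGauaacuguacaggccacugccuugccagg
Mirlet7b: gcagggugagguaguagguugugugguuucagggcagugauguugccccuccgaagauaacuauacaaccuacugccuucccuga
A match of letters is a description of the sequence and not a measured binding site.

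The deposited values are log2 expression values from GCRMA, a method that estimates background from probe sequence and that leaves unexpressed probe sets at a floor. The lowest value on the array was 2.19, and the floor of single probe sets can lie higher. A difference measured from a floor understates the change, and levels were not compared between probe sets. Array medians ran from 3.64 to 3.74. Probe sets were tested with limma where the log2 value passed 4 on at least 3 arrays, and called under an adjusted p (Benjamini-Hochberg over 20292 probe sets) of 0.05. Of the 30 probe sets, 27 were tested, and 15 of these passed 4 on embryonic arrays only, so that they had to differ between the stages. Stage counts, intervals and p-values are therefore given from a fit of all 34945 probe sets without the filter. Nothing in the labels says that the embryonic arrays came from separate litters within a cross, and p-values measure the spread between these samples. In bulk tissue fewer cells of a type and less RNA per cell cannot be told apart.

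Kat6b, the targeted gene, checked the labels. Its main probe set (1423508_at) read 9.68, 9.35 and 9.72 in wild-type adults and 7.25, 7.17 and 6.92 in mutant adults. In embryos it read 11.28, 11.40 and 11.42 in wild types and 6.22, 7.24 and 7.72 in mutants. Mutants and wild types did not overlap at either stage, with a log2 difference, mutant minus wild type, of -2.47 (95% interval -3.12 to -1.82) in adults and -4.31 (-4.96 to -3.66) in embryos. The adult difference was called with the filter (limma adjusted p = 0.0242) but not without it (0.101). With age pair or cross as a block it was not called either (0.054). Probe set 1447758_x_at differed by -2.82 in embryos, called, and by -0.40 in adults, not called. Probe set 1446189_at read 2.19 on all arrays.

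Hmga2, Igf2bp1 and Igf2bp3 were measured in E12.5 telencephalon and stood at their floors in adult cortex, in wild types and in mutants. Mycn, Ccnd1 and Ccnd2 were lower in adults than in embryos but kept a measured adult level with at least 1 probe set, and Lin28a stood at or near its floor at both stages. In wild types 26 of the 30 probe sets were lower in adults by the fit without a filter, where 25.5% of 34945 probe sets were called lower. In mutants it was again 26 of 30, against 25.3% of all. In the fit with the filter 43.5% of 20292 probe sets were called lower in wild-type adults and 43% in mutant adults. The median log2 difference of the 30, adult minus embryonic wild type, was -4.88, beside 0 over all 34945. A difference below -4 was seen for 22 of the 30, beside 1.97% of all probe sets, and one below -6 for 8 of the 30, beside 0.624%. The 30 are repeated readings of 8 genes, chosen with earlier results of these data known, so these shares are a description only. The 4 probe sets not called were both of Lin28a, that of Lin28b and 1 of Mycn.

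**Figure D1:**
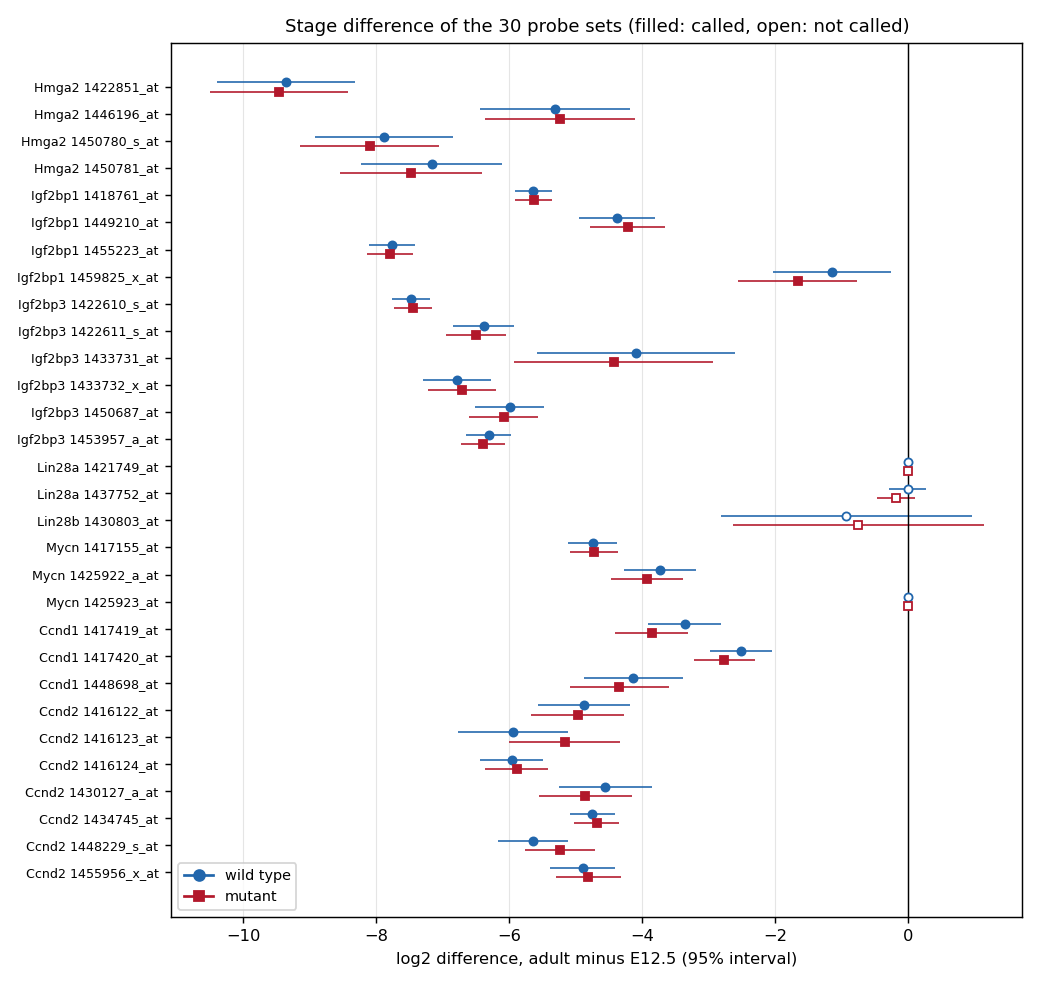
Log2 difference between adult and E12.5 values (x axis) for each of the 30 probe sets (y axis), with 95% intervals, in wild types (circles) and mutants (squares), filled where called, from the fit without the filter. All points of Hmga2, Igf2bp1, Igf2bp3, Ccnd1 and Ccnd2 lie left of 0, from -1.15 to -9.47, and 1 of 3 Mycn probe sets lies at 0.

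Hmga2, an architectural chromatin protein that binds AT-rich DNA and supports the self-renewal of fetal neural stem cells, was off its floor in embryos only. Its probe set 1422851_at read 2.19 on all 6 adult arrays. In embryos it read 12.59, 11.12 and 10.93 in wild types and 12.45, 11.16 and 11.35 in mutants. All 6 embryonic arrays stood far above all 6 adult arrays, the genotypes overlapped within each stage, and the first embryo of each genotype was the highest. The group means were 11.55 ± 0.91 (SD, n = 3) in wild-type embryos and 11.66 ± 0.70 in mutant embryos. The log2 difference between wild-type adults and embryos was -9.36 (95% interval -10.40 to -8.32, limma adjusted p = 2.28e-07), a bound set by the adult floor. The other Hmga2 probe sets differed by -7.88, -7.17 and -5.31, each from adult values between 2.19 and 2.33.

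Igf2bp1 and Igf2bp3 encode related RNA-binding proteins of fetal tissues that regulate the stability, transport and translation of target messages, Igf2 among them. Igf2bp1 (1455223_at) read 2.19 on all 6 adult arrays, 10.03, 9.82 and 10.01 in wild-type embryos and 10.01, 9.61 and 10.34 in mutant embryos. Its stage difference in wild types was -7.76 (-8.11 to -7.42, limma adjusted p = 8.46e-10). The other Igf2bp1 probe sets differed by -5.64, -4.38 and -1.15, the last of these (1459825_x_at) from a floor of 4.74 in adults. Each of the 4 probe sets thus stood at its own floor in adult cortex, and was off it on all 6 embryonic arrays. A difference between the stages was common: 16298 of all 34945 probe sets were called in wild types, in either direction.

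Igf2bp3 (1422610_s_at) stood at 2.49 on all 6 adult arrays. It read 10.26, 9.77 and 9.85 in wild-type embryos and 10.13, 9.81 and 9.86 in mutant embryos. The embryos lay close together and the genotypes overlapped. The stage difference in wild types was -7.47 (-7.76 to -7.19, limma adjusted p = 3.17e-10), and the other 5 Igf2bp3 probe sets differed by -4.09 to -6.78. Probe sets with names ending in _s_at, _x_at or _a_at can detect more than 1 transcript or gene.

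None of the 3 probe sets of the Lin28 genes passed the filter, and these genes were not compared with each other. Lin28a, the paralogue of early embryos and stem cells, read 2.19 on 12 of 12 arrays with probe set 1421749_at, and with 1437752_at it read 2.72 in mutant embryo 1 and 2.19 on the other 11 arrays. Lin28b, which acts later in fetal tissues, read 4.54, 3.69 and 2.32 in wild-type embryos and 5.26, 2.32 and 2.32 in mutant embryos. In adults its values were 2.45, 3.00 and 2.32 in wild types and 2.32, 2.78 and 2.56 in mutants. The first embryo of each genotype passed 4 and stood above all adults, as did wild-type embryo 2, while 3 of the 6 embryos stood at the lowest value of this probe set. The stage difference of Lin28b in wild types was -0.93 (-2.82 to 0.96, limma adjusted p = 0.442), an interval that holds both no difference and a large one. A value at the floor does not show that a gene was absent.

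**Figure D2:**
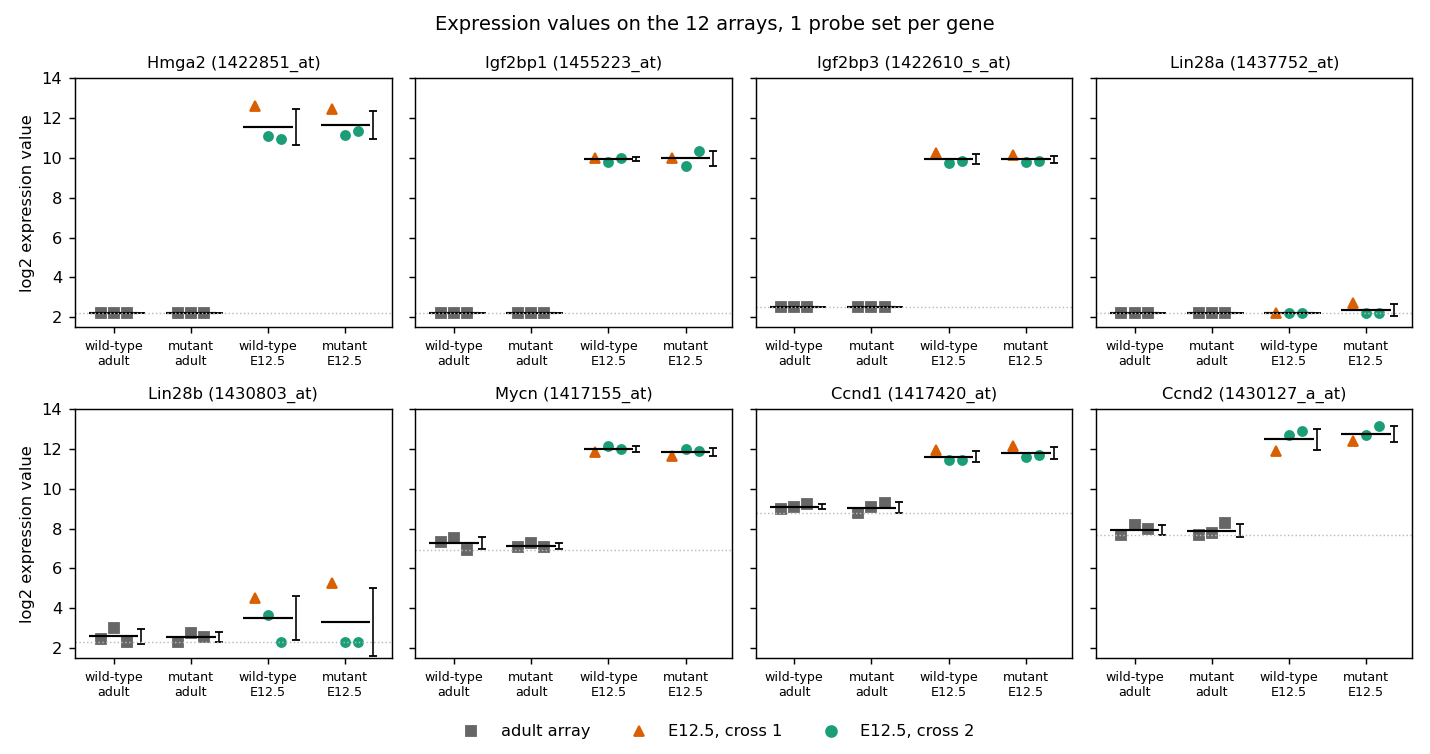
Log2 expression values (y axis) on the 12 arrays for 1 probe set of each gene, by genotype and stage (x axis). Squares are adults, triangles embryos of the first cross and circles embryos of the second; horizontal lines are group means, error bars SD (n = 3), and the dotted line is the lowest value of that probe set. Hmga2, Igf2bp1 and Igf2bp3 stand at their floors in adults, Lin28a stands near the floor in all groups, and Mycn, Ccnd1 and Ccnd2 keep a measured level in adults.

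Mycn, a MYC-family transcription factor that drives growth and division of neural progenitors, was lower in adults but measurable there. Probe set 1417155_at read 7.33, 7.53 and 6.95 in wild-type adults and 7.06, 7.30 and 7.06 in mutant adults. In embryos it read 11.87, 12.15 and 12.03 in wild types and 11.65, 12.02 and 11.92 in mutants. Every adult array lay below every embryonic array, and the genotypes overlapped in both stages. Adult wild types were 26.8-fold lower than embryonic ones (log2 difference -4.74, -5.11 to -4.38, limma adjusted p = 2.45e-08), and mutants 26.4-fold. A second probe set (1425922_a_at) stood between 3.69 and 3.70 in adults and differed by -3.73, while 1425923_at read 4.69 on all 6 embryonic arrays and between 4.69 and 4.71 in adults.

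RefSeq promoters of 300 bases (GRCm38.p6) were listed for Lin28a, Lin28b, Hmga1, Hmga2, Igf2bp2, Igf2bp3 and Mycn. They were searched on both strands for TTTCGCGC and TTTGGCGC, forms of the motif of E2F factors, which act downstream of cyclin D. The promoter of Mycn held 3 matches, of which a pair share letters, and no match was found in the other promoters listed. Of 32851 promoters listed, 0.813% held at least 1. The letters CACGTG, the E-box bound by MYC-family dimers, occurred at 2 places in the promoter of Igf2bp3 and at 1 in that of Lin28b, and 7.15% of all promoters held them. The Mycn promoter (chr12:12941787-12942086, minus strand) is shown with the E2F letters in capitals, which run from position -183 to -161 relative to the transcription start.
Mycn promoter: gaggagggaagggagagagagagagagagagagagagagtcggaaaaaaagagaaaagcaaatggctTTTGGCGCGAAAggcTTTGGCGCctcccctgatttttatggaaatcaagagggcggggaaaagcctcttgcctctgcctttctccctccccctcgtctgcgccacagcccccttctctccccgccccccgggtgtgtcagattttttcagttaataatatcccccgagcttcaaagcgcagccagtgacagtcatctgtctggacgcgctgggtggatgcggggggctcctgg
These matches are letters in a window, and no binding was measured.

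The D-type cyclins, which activate Cdk4 and Cdk6 to release cells into the division cycle, were also lower in adult cortex. Ccnd1 (1417420_at) read 8.98, 9.09 and 9.26 in wild-type adults and 8.76, 9.10 and 9.30 in mutant adults. Its embryonic values were 11.94, 11.44 and 11.46 in wild types and 12.15, 11.59 and 11.71 in mutants. The stages did not overlap, whereas the genotypes did. Wild-type adults were 5.68-fold lower (log2 difference -2.51, -2.97 to -2.04, limma adjusted p = 6.87e-06) and mutant adults 6.77-fold lower than embryos of their genotype. The other Ccnd1 probe sets differed by -3.36 and -4.13 in wild types. The first of these (1417419_at) had 5 adult arrays within 0.05 of its lowest value, so its difference may be a bound.

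Ccnd2 (1430127_a_at), the D-type cyclin known from cortical intermediate progenitors, read 7.68, 8.18 and 8.0002 in wild-type adults and 7.68, 7.77 and 8.28 in mutant adults. Its embryonic values were 11.90, 12.72 and 12.88 in wild types and 12.39, 12.73 and 13.17 in mutants. Adults lay below embryos without overlap, and the first embryo of each genotype was the lowest of its group. The wild-type difference was 23.4-fold (log2 difference -4.55, -5.25 to -3.85, limma adjusted p = 2.01e-06) and the mutant difference 29.0-fold. All 7 Ccnd2 probe sets fell between -4.55 and -5.96 in wild types.

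**Figure D3:**
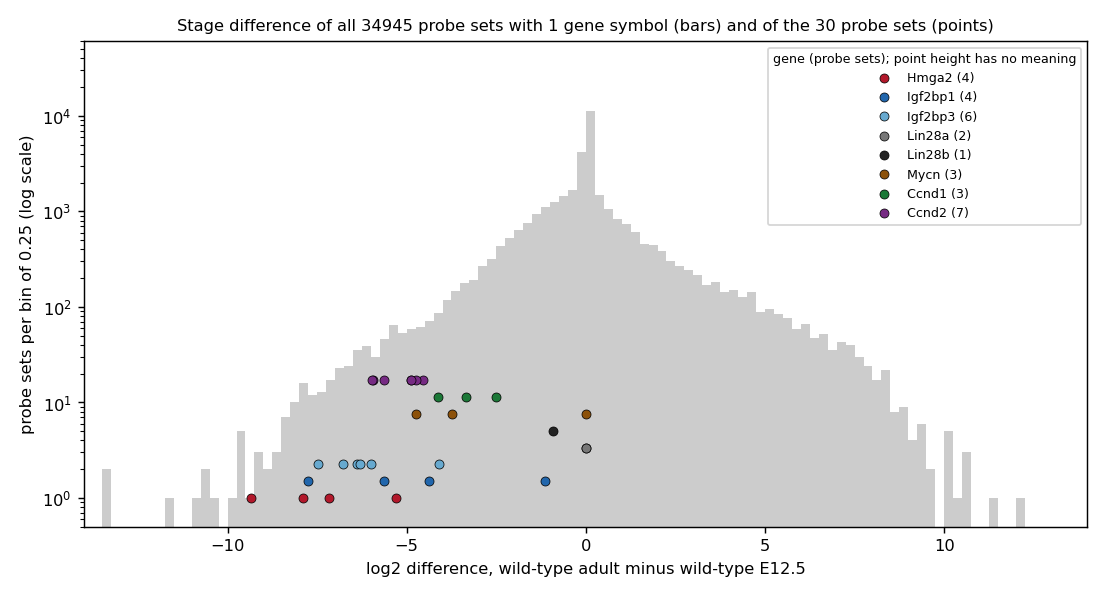
Number of probe sets (y axis, log scale) by log2 difference between wild-type adults and wild-type embryos (x axis, bins of 0.25) for all 34945 probe sets with 1 symbol (bars), with the 30 probe sets as points. The points of Hmga2, Igf2bp1 and Igf2bp3 reach the left tail, down to -9.36, those of Ccnd1 lie between -2.51 and -4.13, and the Lin28 points lie between -0.93 and 0.

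The stages differed in cell makeup and in array set at once. The mean of 9 measured markers of dorsal telencephalic progenitors was 10.88 to 11.05 on embryonic arrays and 6.60 to 6.76 on adult arrays, and 2 of the 9 were at or under 4 in adults. The mean of 9 markers of adult cortical neurons was 5.64 to 7.19 in embryos and 11.45 to 11.68 in adults. Oligodendrocyte markers (7 genes) averaged 3.73 to 4.29 in embryos and 10.12 to 10.53 in adults. By the endings of the array names in the labels, all adults were in one set of arrays and all embryos in others, so stage and array set cannot be told apart. The part of cell makeup in the stage differences was not tested.

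Other genes of the pathway were read from lists in the fit without the filter, with 1 probe set for each gene. Their standard errors (SE) are from the fit with the filter. Over all 18193 genes 26.6% were called lower and 24.4% higher in wild-type adults, and the median difference was 0. Of these genes 6403 were at or under 4 on every array, which lowers both shares, and the lists hold few such genes. Among the 11449 genes that passed the filter 4893 were called lower and 4376 higher, with a median of -0.08. Of 20 other reported let-7 targets with a probe set 17 were lower and 1, Irs2 (named after its value was seen), was higher in adults, with a median of -2.73. At or under 4 on every adult array were 8 of the 20, and 1 of these was so on the embryonic arrays as well. Where such adult values are at a floor, a lower adult value gives a bound. The targets named stood under 4 in adults on average and were Rrm2, a subunit of the enzyme that makes deoxynucleotides (3.01 to 12.59, adult against embryonic mean), the mitotic kinase Aurkb (2.19 to 9.91), the transcription factor E2f2 (2.28 to 7.65) and Plagl2 (3.58 to 6.95). In the cyclin D and RB pathway 14 of 21 genes were lower and 2 higher, with a median of -2.23, and 7 of the 21 were at or under 4 on every adult array. Cdk4, the kinase partner of the D cyclins, went from an embryonic mean of 12.63 to an adult mean of 7.36, a difference of -5.27 (SE 0.16). Cdk2 and the RB relative Rbl1 had adult means of 2.93, under 4, and differed by -6.48 and -6.74.

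Genes that make, use or turn over microRNAs differed less. Of 23 with a probe set, 16 were lower in adults and 1, the ubiquitin ligase Trim32, was higher, with a median of -1.19. Msi1, an RNA-binding protein of neural stem cells, differed by -3.995 (SE 0.17), the Argonaute gene Ago1 by -2.58 (SE 0.08), Hnrnpa1 by -2.35 (SE 0.13) and Dicer1, which cuts the hairpin into the mature microRNA, by -1.89 (SE 0.12). Among other HMG chromatin proteins 5 of 5 were lower, with a median of -3.81, and all 5 passed 4 in adults. Hmgb2 differed by -7.30 (SE 0.13), Hmgn5 by -4.14 (SE 0.12), Hmgb3 by -3.81 (SE 0.20) and Hmgn1 by -2.89 (SE 0.09).

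Insulin-like growth factor genes and the MYC network went both ways. In the first, 7 of 15 were lower and 3 higher, with a median of -0.54. Grb10, an adaptor that dampens insulin receptor signals, differed by -4.25 (SE 0.12), the receptor substrate Irs1 by -2.68 (SE 0.12) and the binding protein Igfbp2 by -2.79 (SE 0.16), while Igfbp6 was higher in adults by 6.01 (SE 0.16). In the MYC and MAX network 5 of 11 were lower and 2 higher, with a median of -0.18. Mycl differed by -3.32 (SE 0.15), Mxd3 by -1.62 and Mlxip by -1.31, and the MYC antagonist Mxi1 was higher by 0.88 (SE 0.13).

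By likeness of profile over the 12 arrays, measured as the root mean square difference after each probe set was centred on its mean, the 5 genes nearest to Hmga2 (1422851_at) were the embryonic globin Hbb-bh1 (0.454), the topoisomerase Top2a (0.486), the proliferation marker Mki67 (0.488), Rrm2 (0.496) and the spindle gene Nusap1 (0.532). Among the members, Igf2bp1 1455223_at was nearest to it outside Hmga2 itself, at 0.937. These distances are dominated by the step between the stages, which all of these genes share.

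Between genotypes no difference passed the test. In adults 10 of the 27 tested probe sets (of Mycn, Ccnd1 and Ccnd2) passed 4 and stood off their lowest value on at least 1 array. The other 17 were under 4 or at their lowest value on all adult arrays. Among the 10, Ccnd1 1417419_at had 5 adult arrays within 0.05 of its lowest value, so an adult effect could hardly be measured with it. Of these 10, 0 were called, where 5 of 18801 (0.0266%) such probe sets, and 0.0246% of all 20292, were called. In embryos it was 0 of 27, beside 13 of 20292 (0.0641%). At an unadjusted limma p under 0.05 the count was also 0 of 27 in each stage, beside 930 and 920 of all probe sets. In adults the 17 probe sets under 4 or at their lowest value could hardly be counted, with or without a block. With the age pair or parental cross as a replicate block the calls over all probe sets were 1 in adults and 3 in embryos, 0 of them members, and at an unadjusted p under 0.05 it was 0 of 27 in adults (1223 in all) and 1 of 27 in embryos (1242 in all). The overlap of the genotypes, given for single probe sets, is not read as a result about the members, since the share of all probe sets that overlap was not computed. Where all adult arrays stood at the floor, the adult overlap was fixed in advance.

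The intervals, without the block unless stated, rest on a spread pooled over adults and embryos. Adult arrays at the floor hardly vary: the SD of Hmga2 (1422851_at) was 0 in both adult groups, against 0.91 and 0.70 in embryos. The embryonic intervals of Hmga2, Igf2bp1 and Igf2bp3 are therefore too narrow, with or without the block. That of Ccnd1 1417419_at may be too narrow as well, since most of its adult arrays stood near its lowest value. For Igf2bp1 (1455223_at) the mutant embryos differed from wild types by 0.03 (95% interval -0.31 to 0.37), for Igf2bp3 (1422610_s_at) by -0.03 (-0.33 to 0.27) and for Mycn (1417155_at) by -0.15 (-0.51 to 0.21). For Hmga2 (1422851_at) the difference was 0.11 with a wider interval, -0.80 to 1.01, and with 1 array left out it ran from -0.29 (without mutant embryo 1) to 0.63 (without wild-type embryo 1). With the cross as a block its interval was -0.16 to 0.38. The mean of Ccnd1 was above that of wild types in mutant embryos with each of its 3 probe sets (1417419_at, 1417420_at and 1448698_at), by 0.41 (-0.09 to 0.91), 0.20 (-0.23 to 0.63) and 0.26 (-0.40 to 0.92), none past the test. Within the first and the second cross the differences were 0.41 and 0.41 with 1417419_at, 0.21 and 0.19 with 1417420_at, and -0.16 and 0.47 with 1448698_at, whose direction thus differed between the crosses. With the cross as a block the interval of 1417419_at was 0.15 to 0.67, which leaves out 0, at an unadjusted p of 0.00637 and an adjusted p of 0.539 by limma. The blocked intervals of the other 2 probe sets were -0.021 to 0.42 and -0.27 to 0.79.

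In adults the largest mean difference among the members was that of Ccnd2 with probe set 1416123_at, which read 3.98, 3.87 and 4.74 in wild types and 5.07, 5.27 and 4.12 in mutants. The groups overlapped, and the difference of 0.62 (-0.10 to 1.35) had an unadjusted p of 0.0855 and an adjusted p of 1 by limma. The other Ccnd2 probe sets differed by -0.04 to 0.37. For Mycn (1417155_at) the adult difference was -0.13 (-0.49 to 0.23) and for Ccnd1 (1417420_at) -0.05 (-0.49 to 0.38). Hmga2, Igf2bp1 and Igf2bp3 stood at the floor in adults of both genotypes, where a difference cannot be measured.

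**Figure D4:**
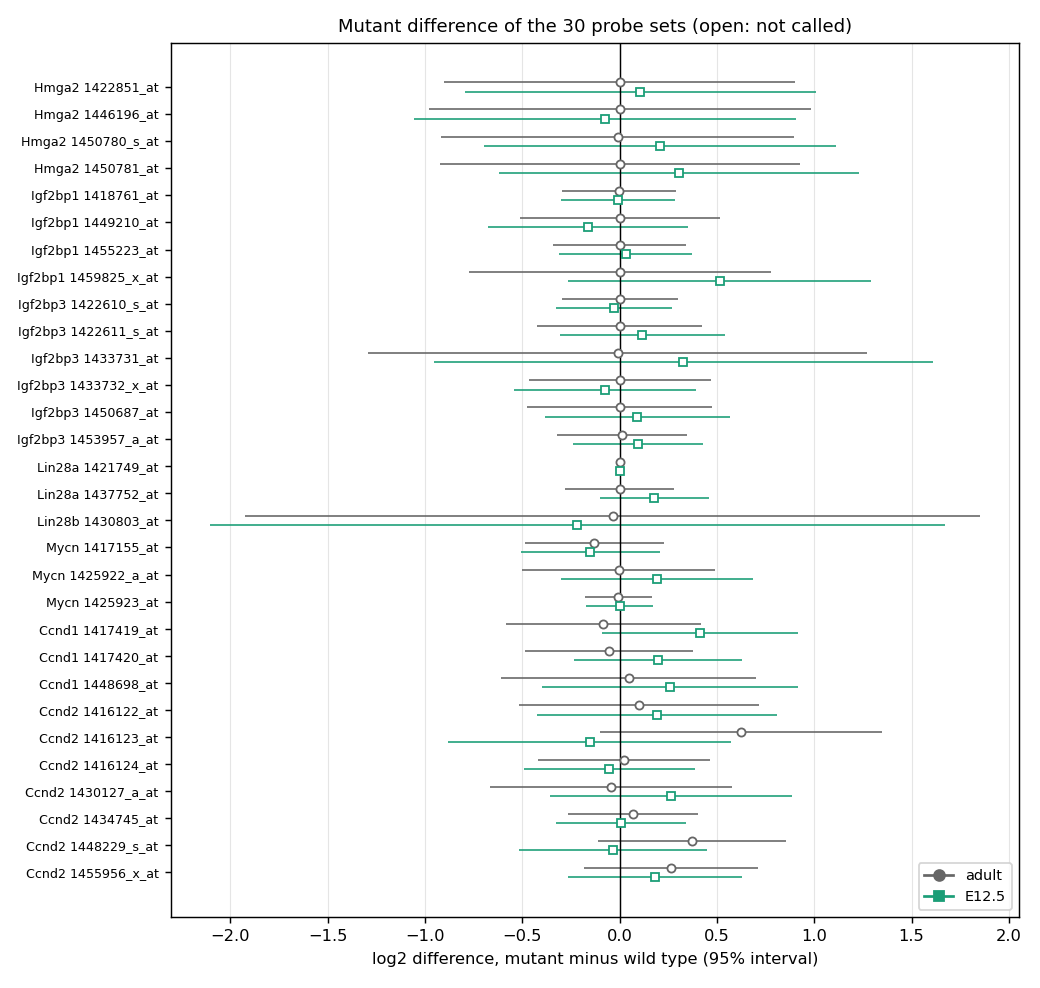
Log2 difference between mutants and wild types (x axis) for each of the 30 probe sets (y axis), with 95% intervals, in adults (circles) and embryos (squares). No probe set was called, and every interval holds 0 in this fit, which has no block for the cross. Where all adult arrays stand at the floor, the adult interval comes from the spread of the embryos, and the embryonic interval is too narrow.

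The mutant difference was also compared between the stages. Of the 27 tested probe sets 0 were called (0 also at an unadjusted p under 0.05 by limma), beside 3 of all probe sets (0.0148%, and 0 with the replicate block) and 1086 of 20292 at the unadjusted threshold. The point estimates ran from -0.51 to 0.78, adult minus embryonic effect. For the 17 probe sets that an adult effect could hardly move, this comparison mostly repeats the embryonic difference with its sign turned. Among the genes of the lists above that passed the filter, 0 were called between genotypes in either stage. Their mutant difference ran from -0.49 to 0.40 in embryos and from -0.32 to 0.42 in adults.

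Among embryos the highest values of Hmga2 were those of the first parental cross, in both genotypes. The comparison of the crosses was added after the data had been seen, with 2 arrays in the first cross (1 of each genotype) and 4 in the second. Hmga2 (1422851_at) stood at 12.45 and 12.59 in the first-cross embryos, while the other 4 embryos read 10.93 to 11.35, so that both genotypes showed the gap and the crosses did not overlap. The cross difference, fitted with genotype, was 1.38 (95% interval 1.09 to 1.67, 2.60-fold, limma adjusted p = 0.00267). With the other 3 probe sets it was 1.47, 1.33 and 1.38, each called. The adult arrays at the floor enter the spread of this fit too, so these intervals are too narrow and these p-values too low.

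Of the 27 tested probe sets 8 were called between the crosses, where 563 of 20292 (2.77%) were called in all. Besides the 4 of Hmga2, they were Igf2bp3 1450687_at (0.65 higher in the first cross), Ccnd1 1417419_at (0.70) and 1417420_at (0.50), and Ccnd2 1416122_at, which was lower by 0.82 in the first cross (log2 difference -0.82, limma adjusted p = 0.0302). The count depended on single arrays and on the fit: it was 1 of 27 without wild-type embryo 1 (79 of 20292 in all), 4 without mutant embryo 1 (359), 4 or 5 without any 1 adult array (358 to 437), and 0 with the embryos fitted alone (18), where the adjusted p of Hmga2 1422851_at was 0.0593. Leaving out wild-type embryo 2 or 3 gave 4 (418 in all) and 5 (385). The 1 call left without wild-type embryo 1 was Hmga2 1422851_at, with a difference of 1.196 and an adjusted p of 0.045.

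Over all 30 probe sets the first-cross embryos lay above the others on 12 and below on 7, and over the 20292 tested probe sets 27.1% separated the crosses in either direction. The 12 comprised all 4 of Hmga2, all 3 of Ccnd1, 3 of Igf2bp3, 1 of Igf2bp1 and that of Lin28b. The 7 comprised 6 of the 7 of Ccnd2 and 1 of Mycn. Lin28b stood at 4.54 and 5.26 in embryos of the first cross, against 2.32 to 3.69, a difference of 2.24 (1.04 to 3.44) that was not called without the filter (limma adjusted p = 0.144). Ccnd1 and Ccnd2 thus took opposite orders across the crosses.

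**Figure D5:**
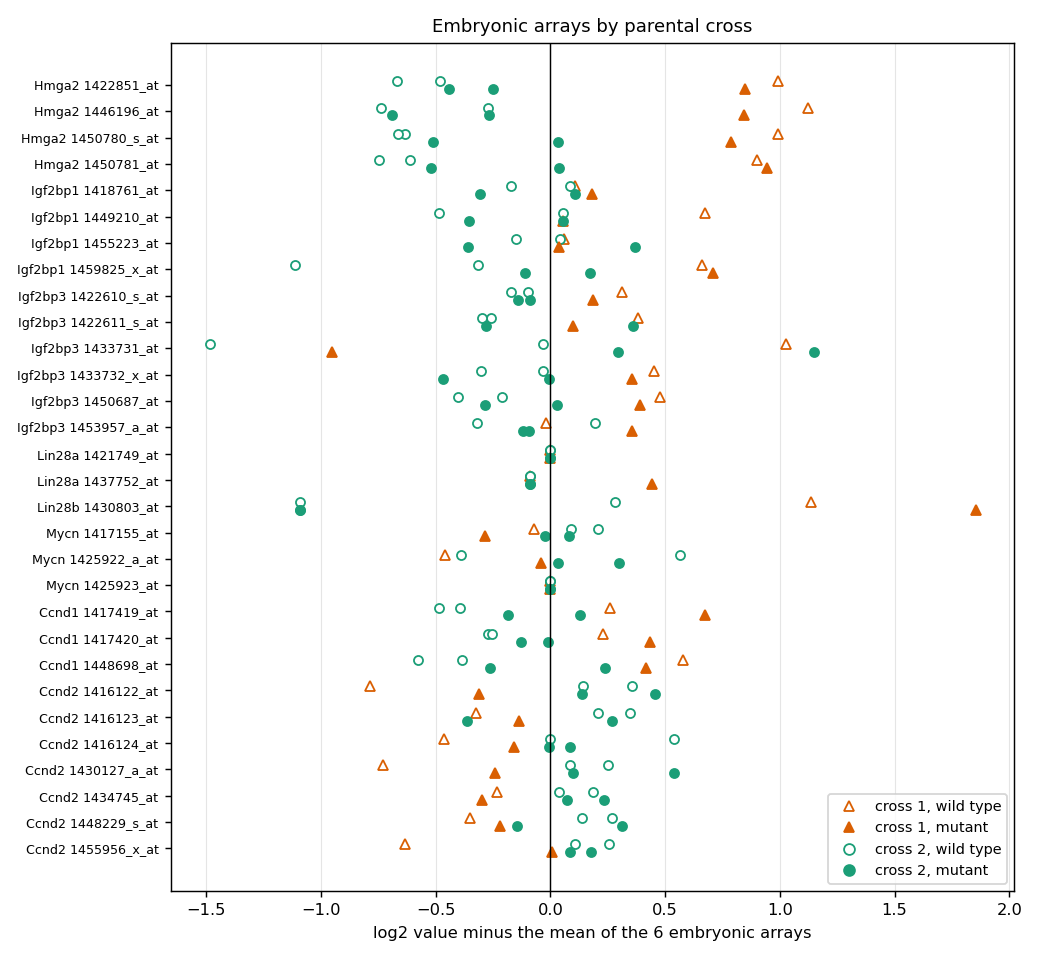
Log2 value minus the mean of the 6 embryonic arrays (x axis) for each of the 30 probe sets (y axis); triangles are the first cross, circles the second, open symbols wild types and filled symbols mutants. Triangles lie to the right for Hmga2 and Ccnd1 and to the left for 6 of 7 Ccnd2 probe sets.

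Markers of several cell types moved with the cross, and 17 of 71 measured markers were called. The list of ventral telencephalon markers (4 genes measured) averaged 7.23 to 7.59 in the first cross and 3.92 to 5.58 in the second, with 3 of the 4 higher in both first-cross embryos. The list of intermediate progenitors and newborn cortical neurons (8 genes) averaged 10.60 to 10.63 against 11.09 to 11.28, with 5 of the 8 lower. The list of adult cortical neurons (9 genes) averaged 6.93 to 7.19 against 5.64 to 6.33, with 4 higher and 3 lower, and Gad1 and Gad2, which make the transmitter GABA, were called at differences of 3.61 and 3.83. Erythroid markers (4 genes) averaged 12.45 to 12.56 against 11.36 to 12.08, with 3 higher, and markers of meninges and head mesenchyme (8 genes) 6.97 to 7.57 against 7.84 to 8.11, with 3 lower. Averages overlapped between the crosses for the lists of cortical hem and choroid plexus (6.60 to 6.91 against 6.75 to 7.75), endothelium (5.62 to 5.74 against 5.68 to 6.09), oligodendrocytes (3.99 to 4.29 against 3.73 to 4.08) and astrocytes (6.52 to 6.99 against 6.79 to 7.37). Averages of dorsal progenitor markers (9 genes) overlapped as well, at 10.88 to 10.97 and 10.94 to 11.05. Single genes of these lists still separated the crosses. In both first-cross embryos 4 of the 9 dorsal progenitor genes were higher and 3 lower. It was 3 and 2 of 9 for hem and choroid plexus and 3 and 2 of 7 for astrocytes. For endothelium it was 0 and 3 of 6, and for oligodendrocytes 1 and 0 of 7. Called among them were Hes1 (-0.68), Wnt8b (1.32), Kcne2 (-4.56) and Aldoc (-3.31). The proliferation genes nearest to Hmga2 in profile had cross differences of 0.01 for Top2a, 0.0054 for Mki67 and -0.14 for Nusap1, while Hbb-bh1 differed by 1.64. The array of mutant embryo 1 was the only one of its array set. Within the set that held the other 5 embryos, Hmga2 read 12.59 in the first cross against 10.93 to 11.35. The part of these markers and of the array set in the cross difference was not tested.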

How the data were processed

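The deposited values are log2 expression values, 1 for each probe set and array, made by the authors with GCRMA per the submitters' processing notes; its version and settings are not stated there. Per the labels' protocols, total RNA was amplified in a two-cycle protocol and labelled with biotin. The values were used as deposited, with no further scaling. Gene symbols came from GEO's platform annotation and were updated through the gene ID against RefSeq (GRCm38.p6), and 34945 had exactly 1 symbol.

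Each probe set was fitted on its own with limma 3.58.1 (R 4.3.3, lmFit and eBayes) over 12 arrays with 4 group means and 8 residual degrees of freedom. The mutants were compared with wild types at both stages, these effects with each other, and adults with embryos within each genotype. Stage values and list counts come from the same model without the filter, since 15 members passed it in embryos only. The SEs of list genes come from the fit with the filter. The fit and its detection of known changes were tested on simulated data. The arrays carry no counts, and their number limits the precision. The series' design text speaks of pairs of wild types and mutants without naming them, and the embryos' parents group them by cross: deviations from the group mean correlated at 0.454 between the embryos of the first cross, at 0.134 to 0.188 within the second and at -0.304 to -0.226 between crosses. Adult age pairs correlated at 0.188, 0.0063 and 0.217, so their pairing was not clear, and pair or cross entered only as an alternative block. The cross difference is the cross term of that fit.

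The members and the gene lists were chosen with earlier results of these data known. The genes named are mainly all member and Kat6b probe sets, up to 4 genes of lowest p in each list, and the 5 genes nearest to Hmga2 in profile. Some cell type markers called between the crosses are named as well. Alternatives varied the filter, the probe sets, the scaling, the fit and each array in turn.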

Additional observations from a re-analysis of the deposited data

How the results depend on the processing

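The stage result was the most stable. Both stage counts of 26 called probe sets were 26 under each scaling, variance model, filter and left-out array tried and with the age pair or cross as a replicate block. In these fits, other than that without a filter, 15 members had passed through embryos only and so had to differ. With the main filter 43.5% of all probe sets were called lower in wild-type adults and 43% in mutant adults. They were 16 (of 17 tested, 9 of them over the filter in embryos only) without _s_at, _x_at and _a_at probe sets, where 41.9% of all were lower in wild types and 40.9% in mutants, and 6 (of 6, 3 of them in embryos only) with 1 probe set for each gene, where 43.0% and 42.2% were. For the 6 main probe sets all 154 values of the wild-type stage difference under alternatives kept their direction and call. Those of Hmga2, Igf2bp1 and Igf2bp3 passed the filter through embryos only. In the mutant contrasts 0 members were called under every alternative, the replicate block included, while calls over all probe sets ran from 0 to 12 in adults and from 1 to 66 in embryos. In adults 17 members of the main fit could hardly be called, being under 4 or at their lowest value.

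The cross result, a comparison chosen after seeing the data, moved most. Its count of 8 of 27 (563 of 20292 in all) became 5 of 30 without a filter (361 of 34945), 2 of 6 with 1 probe set for each gene (362 of 11449), 0 with only the embryos in the fit (18 of 20292), and 1 to 8 with 1 array left out (79 to 691). Leaving out 1 array moved Hmga2 from -0.29 to 0.63 in mutant embryos, Igf2bp1 from -0.14 to 0.22, Igf2bp3 from -0.13 to 0.12 and Ccnd2 from -0.037 to 0.45. In mutant adults it moved Ccnd1 from -0.18 to 0.092 and Ccnd2 from -0.23 to 0.074. The cross difference of Igf2bp1 ran from -0.077 to 0.23, and array weights turned its mutant difference in embryos to -0.16. None of these was called.

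Floors, 3 arrays in each group and arrays confounded with stage limit these data. A member at its floor gives a bound, and mutant differences inside the intervals given are not excluded. These intervals are not limits of detection, since calls also depended on the adjustment over all probe sets tested.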
